A study of Mus musculus with 16 samples.

Results

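Chitinase-like proteins, resistin-like molecule alpha, the arginine-using enzymes and the mannose receptor are the genes most often read as signs of how a mouse macrophage has been activated. The set described here holds 6 genes (Chil3, Chil1, Retnla, Arg1, Nos2 and Mrc1), taken by name from the symbols of the array annotation, out of 30943 genes tested. All 6 were found, each with 1 transcript cluster, the set of probes that the array summarises as 1 value. They were read in whole ear skin of C57BL/6J mice aged 8 to 11 weeks, in 4 groups of 4 arrays. Wild-type vehicle and wild-type IMQ ears came from mice with an intact miR-146a gene, and knockout vehicle and knockout IMQ ears from miR-146a-/- mice of the same background strain. IMQ ears received 31.25 mg of Aldara, a cream with 5% imiquimod, each day for 3 days, and ears were taken on day 4. Imiquimod activates Toll-like receptor 7 and gives a psoriasis-like inflammation in mouse skin, and the comparison of genotypes asks what loss of miR-146a changes in it. The labels name no cell type for the knockout and no composition for the vehicle. They also leave unstated whether each sample is its own mouse, and the spread behind every p-value may therefore be technical.

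In textbook accounts, interleukin 4 and interleukin 13 act through the factor STAT6 to induce Chil3, Retnla, Arg1 and Mrc1 in mouse macrophages, a state called alternative activation. Interferon gamma and Toll-like receptor ligands induce Nos2, a state called classical activation. The division is not strict: Chil3 and Arg1 are also made by neutrophils and monocytes, Arg1 by keratinocytes, Retnla by adipose tissue, and Mrc1 by dermal macrophages at rest and lymphatic endothelium. Chil3 (Ym1) and Chil1 (BRP-39, the mouse form of YKL-40) bind sugars of the chitin type and have lost the chitinase activity of their relatives. Arg1 splits arginine into ornithine and urea, Nos2 turns it into nitric oxide and citrulline, and Mrc1 (CD206) is a surface lectin that takes up mannose-bearing glycoproteins.

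The mature microRNA whose gene is deleted in the knockout is shown because it defines the genotype comparison. Its seed, bases 2 to 8, is in capitals, and the sequence is from RefSeq (GRCm38.p6, chr11:43374435-43374456, minus strand).
mmu-miR-146a-5p: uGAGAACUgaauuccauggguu
Its own probe set read 1.86 ± 0.22 and 1.97 ± 0.13 in wild-type ears with vehicle and IMQ, and 1.80 ± 0.02 and 1.84 ± 0.09 in knockout ears (log2, SD, n = 4). That level is at percentile 0.575 of all genes, at the floor of the array, so it does not check the genotype labels.

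The 4 promoter windows that follow are shown because each pair holds neighbouring genes that read differently: Chil3 rose with IMQ while the reading of Chil4 beside it stayed at the array floor, and Retnla fell while Retnlg beside it rose. In the RefSeq table no protein-coding gene lies between the members of either pair, on chromosome 3 and on chromosome 16. Each window runs from 250 bases before to 50 bases after the annotated transcription start (RefSeq, GRCm38.p6), 5′ to 3′ on the strand of the gene. Searched on both strands, capitals mark TTCNNNNGAA (the spacing STAT6 prefers), TTGCNNAA (a C/EBP-type core) and the TATA box TATAAA. Chil3 is at chr3:106167515-106167814 (minus strand), Chil4 at chr3:106219430-106219729 (minus strand), Retnla at chr16:48842359-48842658 (plus strand) and Retnlg at chr16:48872358-48872657 (plus strand).
Chil3: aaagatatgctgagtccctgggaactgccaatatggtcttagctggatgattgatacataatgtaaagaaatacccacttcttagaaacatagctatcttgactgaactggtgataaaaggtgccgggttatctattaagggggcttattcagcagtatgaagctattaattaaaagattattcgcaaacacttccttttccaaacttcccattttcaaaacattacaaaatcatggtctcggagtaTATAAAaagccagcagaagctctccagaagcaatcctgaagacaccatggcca
Chil4: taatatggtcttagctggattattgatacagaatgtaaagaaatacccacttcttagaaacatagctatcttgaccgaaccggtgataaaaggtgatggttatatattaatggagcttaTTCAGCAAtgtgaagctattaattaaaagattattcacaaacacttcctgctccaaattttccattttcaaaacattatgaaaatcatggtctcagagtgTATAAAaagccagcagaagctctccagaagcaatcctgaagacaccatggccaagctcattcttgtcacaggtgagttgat
Retnla: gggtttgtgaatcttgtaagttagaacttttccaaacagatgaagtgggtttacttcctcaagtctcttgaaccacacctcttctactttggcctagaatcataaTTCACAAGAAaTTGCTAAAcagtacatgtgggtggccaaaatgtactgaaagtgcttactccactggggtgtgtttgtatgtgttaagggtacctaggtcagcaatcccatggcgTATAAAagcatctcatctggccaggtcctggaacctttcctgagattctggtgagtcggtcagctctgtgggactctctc
Retnlg: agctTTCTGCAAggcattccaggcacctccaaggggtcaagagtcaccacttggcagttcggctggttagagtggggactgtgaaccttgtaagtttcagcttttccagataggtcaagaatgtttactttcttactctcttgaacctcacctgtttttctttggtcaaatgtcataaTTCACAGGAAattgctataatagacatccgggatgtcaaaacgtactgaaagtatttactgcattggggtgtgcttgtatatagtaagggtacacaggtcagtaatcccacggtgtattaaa
Over 32851 promoter windows of this length, 6.95% hold TTCNNNNGAA, 10.8% hold TTGCNNAA and 13.6% hold TATAAA. The Chil3 and Chil4 windows align with 251 of 271 aligned bases identical and 58 gap positions, and neither holds TTCNNNNGAA. The Retnla and Retnlg windows each hold a TTCNNNNGAA match (TTCACAAGAA and TTCACAGGAA), first base at -145 and -72 from the start. Of their 225 aligned bases 178 were identical, with 150 gap positions. For scale, the unrelated windows of Chil3 and Retnla had 150 identical of 273 aligned bases, with 54 gap positions. The starts of Chil3 and Chil4 are annotated at different points of an otherwise similar stretch: the TATA box begins at -31 in Chil4 and at -3 in Chil3. The same holds for Retnla and Retnlg, whose TTCNNNNGAA matches lie in similar surrounding sequence at different distances from the annotated start. None of these matches shows that a factor binds there. Among the 6 members, 4 have an entry in this promoter table. The windows of Chil1 and Mrc1 held none of these 3 motifs. The NF-kB-type GGGNNNNNCC was also searched and was in the windows of Chil3, Chil1 and Mrc1 and in 50.8% of all windows.

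With IMQ, wild-type ears had more Chil3 mRNA and less Retnla mRNA, and no other member passed the test. Of the 6 members 1 rose and 1 fell at adjusted p under 0.05 in a limma fit across all genes, where 1.95% of all genes rose and 1.69% fell (3.64% called in all). In knockout ears Chil3, Chil1 and Arg1 rose and Retnla fell, which is 3 of 6 higher and 1 of 6 lower against 8.07% and 6.91% of all genes (15% called in all). The median change of the 6 was 0.55 on the log2 scale in wild-type and 0.58 in knockout ears, against -0.02 over all genes in each. The 6 were chosen with earlier results of these data known. Setting them against all genes is therefore a description and not a test of an excess. Nos2 and Mrc1 passed in neither genotype. All levels here are log2 intensities, and all changes are differences of log2 group means with their standard error (n = 4 and 4) and the limma adjusted p.

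**Figure D1:**
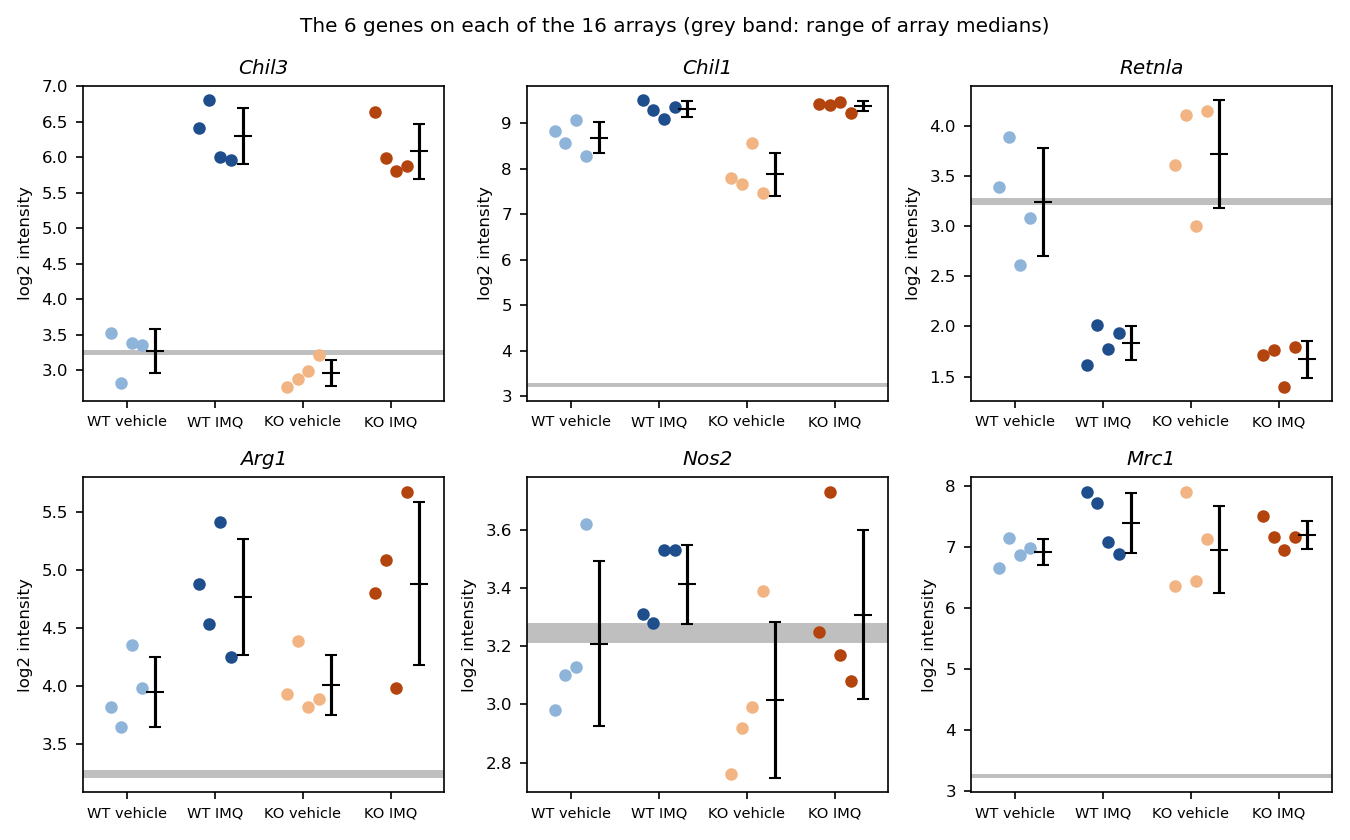
Log2 intensity of the 6 genes on each of the 16 arrays, 4 per group, with the group mean and SD beside the points and the range of the array medians (3.21 to 3.28) as a grey band. The Chil3 points of both IMQ groups lie between 5.81 and 6.80 and those of both vehicle groups between 2.77 and 3.52, and the Retnla points lie between 1.40 and 2.01 with IMQ. Levels of different genes come from different probes and cannot be set against each other.

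Chil3, whose protein is a major secreted product of myeloid cells, had the largest change of the 6 in each genotype. It read 3.52, 2.82, 3.38 and 3.35 in wild-type vehicle ears and 6.41, 6.80, 6.00 and 5.96 in wild-type IMQ ears. In knockout ears it read 2.77, 2.88, 2.99 and 3.21 with vehicle and 6.64, 5.99, 5.81 and 5.88 with IMQ. Every IMQ array thus lay above every vehicle array, with a gap of over 2 log2 units, and within a treatment the genotypes overlapped. The rise was 3.02 ± 0.21 in wild-type ears (adjusted p = 1.58e-07) and 3.12 ± 0.21 in knockout ears (adjusted p = 2.37e-08). It ranks 4 from the top among 30943 rises in wild-type ears and 22 from the top in knockout ears. Vehicle values lie near or below the array medians of 3.21 to 3.28, where background flattens a ratio. The estimates of 8.14-fold and 8.68-fold may therefore be too small. Their 95% intervals on the log2 scale were 2.59 to 3.46 and 2.69 to 3.55. From high to low the group means were wild-type IMQ (6.29 ± 0.39), knockout IMQ (6.08 ± 0.38), wild-type vehicle (3.27 ± 0.31) and knockout vehicle (2.96 ± 0.19, SD, n = 4), and the genotypes overlapped within each treatment.

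Several relatives of Chil3 read at the array floor. Chil4, Chil5, Chil6 and the active chitinase Chia1 lay below the array medians on all 16 arrays, where a change may not be seen. Chil4 (Ym2) read 2.49 ± 0.22 and 2.37 ± 0.18 in wild-type vehicle and IMQ ears (SD, n = 4), and its change was -0.12 ± 0.20 (95% interval -0.55 to 0.31, adjusted p = 0.878). Chil3 and Chil4 are near-identical copies, so probes of either cluster may also bind RNA of the other. Chit1, the macrophage chitotriosidase in humans, read well above the medians, from 7.51 to 8.11 on all arrays, and its change was -0.18 ± 0.13 in wild-type and 0.10 ± 0.13 in knockout ears (adjusted p = 0.602 and 0.718). Of the 10 genes of the chitinase family, 1 rose in wild-type and 2 in knockout ears, namely Chil3 and Chil1, and none fell. By comparison, 1.95% of all genes rose in wild-type and 8.07% in knockout ears.

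By the 16 array values the genes most like Chil3 were Tnfaip2 (Pearson r = 0.964), Slc10a6 (0.956) and Itgam (0.955). Itgam encodes the CD11b integrin of neutrophils, monocytes and macrophages, and Tnfaip2 is a gene induced by tumour necrosis factor. These r values describe 16 arrays in 4 groups and carry no p, since the IMQ and vehicle arrays form separate clusters. Markers of several myeloid cells moved in the same ears as Chil3. For the counts that follow, the shares of all genes in wild-type ears were 1.95% higher and 1.69% lower. The shares in knockout ears were 8.07% higher and 6.91% lower. Of 22 neutrophil markers 11 rose in wild-type and 13 in knockout ears, with Mmp8, a neutrophil collagenase, at 1.84 ± 0.18 in each genotype. The mean log2 level of this list ran from 3.67 to 4.43 in wild-type vehicle, 4.74 to 5.02 in wild-type IMQ, 3.52 to 3.88 in knockout vehicle and 4.92 to 5.19 in knockout IMQ ears. Its granule genes Ngp, Camp, Ltf, Mpo and Elane stayed below the array medians on all arrays. Of 22 macrophage and monocyte markers 11 rose in wild-type ears, and 9 rose and 1 fell in knockout ears. The eosinophil genes Siglec5 (now Siglecf), Epx, Prg2, Ccr3, Il5ra and Ear6 lay below the medians on all arrays. The eosinophil-associated gene Ear2 did not, with group means of 3.97 to 4.27, and passed in neither genotype. Ear1 changed by 0.875 ± 0.241 in wild-type and 0.452 ± 0.241 in knockout ears (adjusted p = 0.0512 and 0.266). The Ear genes were named after their values were seen. Of the 16 eosinophil and mast cell genes 3 mast cell genes rose in wild-type ears (Tpsb2, Cma1 and Fcer1a, the last of them below the medians). In knockout ears 0 passed. In whole ears more cells of a type and more RNA per cell cannot be told apart, and the part of these cells in the rise of Chil3 was not tested.

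Chil1 was already high with vehicle, and in knockout ears it rose with IMQ from the lowest group mean to 9.38 ± 0.10, beside 9.31 ± 0.17 in wild-type IMQ ears (SD, n = 4). It read 8.83, 8.56, 9.06 and 8.27 in wild-type vehicle and 9.50, 9.28, 9.09 and 9.36 in wild-type IMQ ears. Knockout ears read 7.80, 7.66, 8.56 and 7.47 with vehicle and 9.42, 9.40, 9.47 and 9.23 with IMQ. Vehicle and IMQ arrays did not overlap in either genotype, although the wild-type gap was only from 9.06 to 9.09. Over all genes 10.7% had no overlap between vehicle and IMQ in wild-type ears and 16% in knockout ears. The change was 1.51 ± 0.20 in knockout ears (2.84-fold, adjusted p = 2.95e-05) and 0.63 ± 0.20 in wild-type ears (95% interval 0.21 to 1.04, adjusted p = 0.0954), and the wild-type change was called with array weights (adjusted p = 0.0389).

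The low point of Chil1 was the knockout vehicle group, with a mean of 7.87 ± 0.48 against 8.68 ± 0.34 in wild-type vehicle ears (SD, n = 4). Knockout arrays 1, 2 and 4 lay below all wild-type arrays and array 3 (8.56) lay among them. The genotype difference was -0.81 ± 0.20 (95% interval -1.22 to -0.40, adjusted p = 0.0734), just outside the threshold, where 0.456% of all genes were called. Without knockout vehicle array 3 it was -1.04 (adjusted p = 0.00334), without wild-type vehicle array 4 it was -0.94 (adjusted p = 0.0442), and without knockout vehicle arrays 3 and 4 it was -0.95 (adjusted p = 0.0343). It was not called without any of the other 6 arrays, and over all settings it ran from -1.04 to -0.67 (adjusted p from 0.00334 to 0.241), with a call in 4 of 9 alternatives. The difference of the IMQ effects was 0.88 ± 0.28 (95% interval 0.30 to 1.46, adjusted p = 0.135), and without knockout vehicle array 3 it was 1.11 (adjusted p = 0.0126). That was the call in 1 of 16 left-out arrays, beside 1 of 8 alternatives, and the value ran from 0.75 to 1.11 (adjusted p from 0.0126 to 0.274).

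The array profile of Chil1 was closest to that of Pla2g4e (r = 0.975), Galnt3 (0.973) and Gjb2 (0.973, 16 arrays). Gjb2 encodes connexin 26, a gap junction protein of stressed epidermis. As a description of its pattern, Gjb2 had means of 8.01 with vehicle and 9.35 with IMQ in wild-type ears and of 6.52 and 9.56 in knockout ears, so its low point was the same group. Its genotype difference with vehicle was -1.49 ± 0.28 (limma adjusted p = 0.0201). Gjb2 was picked by its likeness to Chil1 over these same arrays. Its shared low group and this difference therefore lend no support to the Chil1 result. Beside the low Chil1 reading, the mean log2 level of the keratinocyte list was 9.03 to 9.74 in knockout vehicle ears against 9.96 to 10.12 in wild-type vehicle ears, and its lowest array, number 4, was also the lowest for Chil1. This list of 18 genes mixes keratins of activated epidermis, such as Krt6a, with other keratinocyte genes. The genotype difference with vehicle was -2.70 ± 0.55 for Krt6a and 0.77 ± 0.14 for Krt15 (limma adjusted p = 0.0326 and 0.0179). Its median over the list was -0.28. The mean is therefore no plain measure of keratinocyte content, and the part of the list in the Chil1 result was not tested.

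Retnla, which encodes a small secreted cysteine-rich protein and is a standard marker of the response to interleukin 4, fell in each genotype. Wild-type vehicle ears read 3.39, 3.89, 2.61 and 3.08 and wild-type IMQ ears 1.62, 2.01, 1.78 and 1.93. Knockout vehicle ears read 3.61, 4.11, 3.0 and 4.15 and knockout IMQ ears 1.72, 1.77, 1.40 and 1.80. All 8 IMQ arrays lay below all 8 vehicle arrays. The change was -1.41 ± 0.24 in wild-type ears (adjusted p = 0.00189) and -2.05 ± 0.24 in knockout ears (adjusted p = 1.31e-05), placing it 23 and 17 from the bottom of 30943 changes. With IMQ every reading lay below the lower quartiles of the arrays (2.50 to 2.60), so the estimated falls of 2.65-fold and 4.13-fold may be too small. Their 95% intervals on the log2 scale were -1.92 to -0.89 and -2.56 to -1.53. From high to low the means were knockout vehicle (3.72 ± 0.54), wild-type vehicle (3.24 ± 0.54), wild-type IMQ (1.83 ± 0.17) and knockout IMQ (1.67 ± 0.18, SD, n = 4), and neighbours within a treatment did not differ beyond these SDs.

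Its neighbour Retnlg, a resistin-like gene of neutrophils and bone marrow cells, moved the other way. It read 2.52, 2.64, 3.07 and 1.94 in wild-type vehicle ears and 5.57, 4.96, 6.15 and 6.22 in wild-type IMQ ears. In knockout ears it read 2.21, 2.50, 2.74 and 2.75 with vehicle and 5.87, 5.96, 5.96 and 5.81 with IMQ. Its rise was 3.18 ± 0.24 in wild-type ears (adjusted p = 6.47e-07) and 3.35 ± 0.24 in knockout ears (adjusted p = 7.26e-08). Retnlb, the intestinal member, stayed below the medians on all arrays. Retn, which encodes resistin and is an adipocyte gene in mice, changed by 0.76 ± 0.35 in wild-type ears (adjusted p = 0.317) and by -0.89 ± 0.35 in knockout ears (adjusted p = 0.103), with a difference of effects of -1.65 ± 0.49 (adjusted p = 0.110).

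Over the 16 arrays Retnla was most like Dmpk (r = 0.958), Itgb5 (0.947) and Ddit4l (0.947). Dmpk encodes myotonic dystrophy protein kinase of muscle, Itgb5 an integrin chain, and Ddit4l a stress protein that lowers mTOR activity. The knockout vehicle arrays that were high in Retnla (2 and 4) were also high in the 8 adipocyte genes of the marker list, with mean log2 levels of 6.12 and 5.77 against 5.41 and 5.21 on arrays 1 and 3. Array 3, the lowest there in Retnla, was also lowest in the muscle genes (8.71). In wild-type vehicle ears array 2 was highest and array 3 lowest in Retnla. The same held for the adipocyte genes (5.33 and 4.70) and the muscle genes (8.78 and 7.88). In knockout IMQ ears, by contrast, array 3 was lowest in Retnla and highest in the adipocyte genes (5.55). In wild-type ears the adipocyte genes read 4.70 to 5.33 with vehicle and 5.37 to 5.95 with IMQ, and the 9 muscle genes 7.88 to 8.78 with vehicle and 7.78 to 8.57 with IMQ. In knockout ears the muscle genes went from 8.71 to 9.60 with vehicle to 7.25 to 8.03 with IMQ, and the adipocyte genes from 5.21 to 6.12 to 5.05 to 5.55, and the part of muscle and adipocyte content in the Retnla result of either genotype was not tested.

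**Figure D2:**
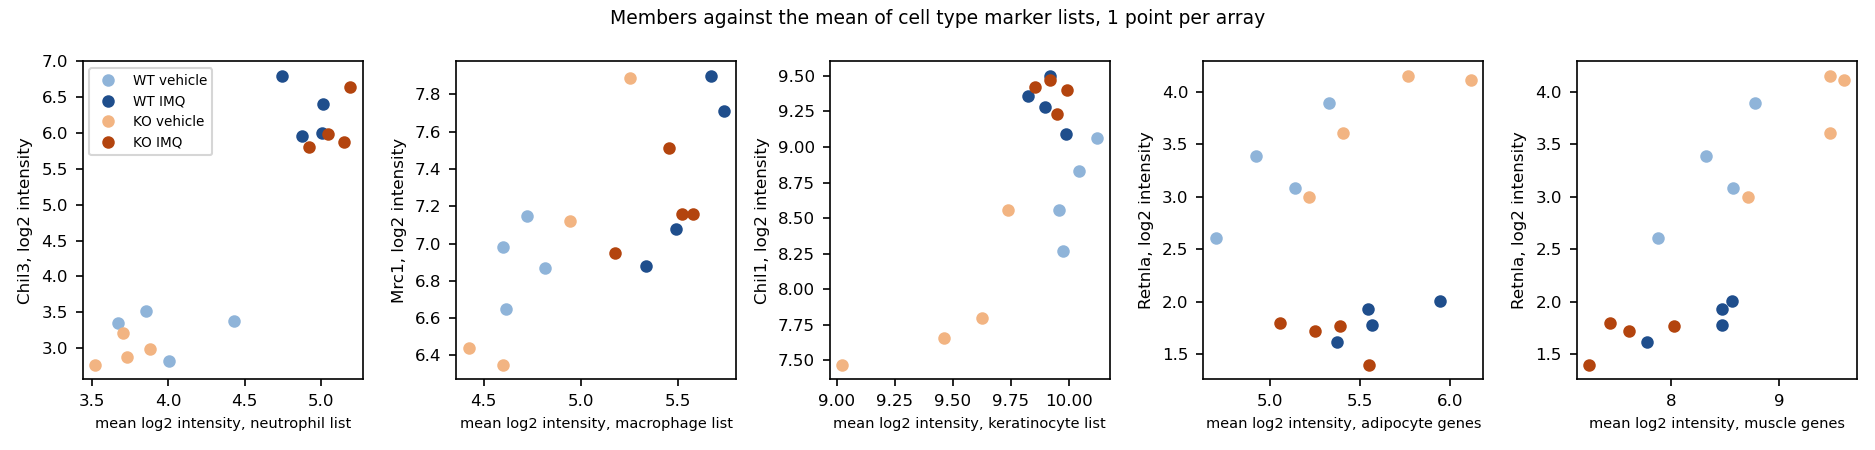
Each point is 1 array; the vertical axes are log2 intensities of Chil3, Mrc1, Chil1 and Retnla, and the horizontal axes the mean log2 intensity of a marker list or part of it. In the 2 Retnla panels the wild-type IMQ points (1.62 to 2.01) lie below the wild-type vehicle points (2.61 to 3.89) and the muscle means of these 2 groups overlap.

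Arg1 and Nos2 compete for the same amino acid. Arg1 read 3.82, 3.65, 4.35 and 3.98 in wild-type vehicle ears and 4.88, 4.53, 5.41 and 4.25 in wild-type IMQ ears. Knockout vehicle ears read 3.93, 4.39, 3.82 and 3.89 and knockout IMQ ears 4.80, 5.08, 3.98 and 5.67. The groups overlapped in each genotype, and the IMQ groups had the wider spread, with SDs of 0.50 and 0.70 against 0.30 and 0.26. The change was 0.88 ± 0.28 in knockout ears (adjusted p = 0.0448) and 0.82 ± 0.28 in wild-type ears (95% interval 0.22 to 1.41, adjusted p = 0.145). The difference between these effects was 0.06 ± 0.40 (95% interval -0.79 to 0.90, adjusted p = 0.975), so the call in 1 genotype does not show that the genotypes differ. The knockout call was lost in 5 of 9 other settings and when any of 6 of the 8 knockout arrays was left out (adjusted p from 0.00398 to 0.273 over all of these).

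Nos2 stayed near the array medians in every group. It read 2.98 to 3.62 in wild-type vehicle, 3.28 to 3.53 in wild-type IMQ, 2.76 to 3.39 in knockout vehicle and 3.08 to 3.73 in knockout IMQ ears, so all 4 groups overlapped. The change with IMQ was 0.20 ± 0.17 in wild-type ears (95% interval -0.14 to 0.56, adjusted p = 0.665) and 0.29 ± 0.17 in knockout ears (-0.06 to 0.64, adjusted p = 0.305). At this level a small amount of Nos2 mRNA cannot be told from background.

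Of 17 measured genes of arginine use 8 rose and 1 fell in knockout ears, and 1 rose in wild-type ears. By comparison, 1.95% of all genes rose in wild-type ears, and 8.07% rose and 6.91% fell in knockout ears. Srm, spermidine synthase, rose by 1.40 ± 0.19 (adjusted p = 4.95e-05), the mitochondrial arginase Arg2 by 1.10 ± 0.22 (adjusted p = 0.00144), Odc1, ornithine decarboxylase, by 0.99 ± 0.18 (adjusted p = 8.95e-04) and the arginine transporter Slc7a1 by 0.97 ± 0.17 (adjusted p = 4.48e-04). Oat, ornithine aminotransferase (-0.20 ± 0.12, adjusted p = 0.356), and Sms, spermine synthase (0.13 ± 0.22, adjusted p = 0.784), did not pass in knockout ears. Azin1, the antizyme inhibitor that protects ornithine decarboxylase, rose in wild-type ears too, by 0.55 ± 0.11 (adjusted p = 0.00459). The differences between the IMQ effects were 0.97 ± 0.26 for Odc1 and 0.86 ± 0.27 for Srm and did not pass (adjusted p = 0.0755 and 0.136). Both genes read lower in knockout than in wild-type vehicle ears, by -0.78 ± 0.18 and -0.79 ± 0.19 (adjusted p = 0.0675 and 0.0751). Gch1, which makes the tetrahydrobiopterin cofactor of nitric oxide synthases, rose by 0.73 ± 0.17 in knockout ears (adjusted p = 0.00510), while Nos1 and Nos3 passed in neither genotype. Gch1, Nos1, Nos3, Oat and Sms were named after their values were seen.

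**Figure D3:**
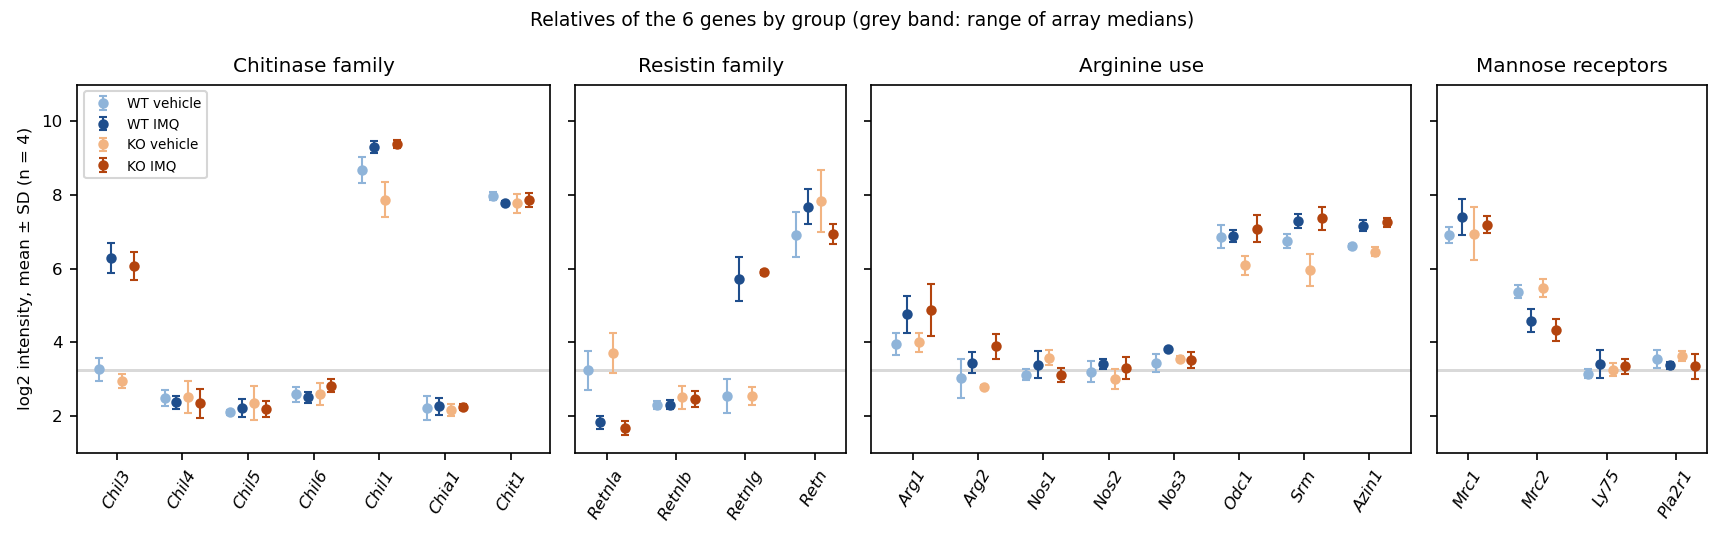
Group mean and SD (n = 4, log2 intensity) of the members beside their relatives, the 4 groups side by side for each gene, with the array medians in grey. Within the chitinase panel Chil3 moves from about the grey band to 6.29 and 6.08 with IMQ while Chil4, Chil5, Chil6 and Chia1 stay below the band, and within the resistin panel Retnla and Retnlg move in opposite directions.

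Mrc1 was well above the array medians in every ear and did not pass with IMQ. It read 6.65, 7.15, 6.87 and 6.98 in wild-type vehicle and 7.90, 7.71, 7.08 and 6.88 in wild-type IMQ ears. In knockout ears it read 6.35, 7.89, 6.44 and 7.12 with vehicle and 7.51, 7.16, 6.95 and 7.16 with IMQ. Knockout vehicle array 2 was about as high as the highest wild-type IMQ array, and the groups overlapped throughout. The change was 0.48 ± 0.28 in wild-type ears (95% interval -0.10 to 1.06, adjusted p = 0.477) and 0.24 ± 0.28 in knockout ears (-0.34 to 0.83, adjusted p = 0.669). Knockout vehicle array 2 also had the highest mean of the macrophage list in its group, 5.26 against 4.42 to 4.95 on the other arrays. Its part in the spread of Mrc1 was not tested.

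In the same ears 11 of 22 macrophage and monocyte markers rose in wild-type ears and 9 of 22 in knockout ears. Among all genes 1.95% rose and 1.69% fell in wild-type ears, and 8.07% rose and 6.91% fell in knockout ears. Itgam, which neutrophils also express, rose by 2.16 ± 0.21 and 2.33 ± 0.21 in wild-type and knockout ears (adjusted p = 1.05e-05 and 6.45e-07), and Emr1, now Adgre1, which encodes F4/80, by 1.62 ± 0.28 and 1.12 ± 0.28 (adjusted p = 0.00171 and 0.00895). Others did not pass in either genotype, among them Csf1r, the receptor for macrophage growth factor (0.32 ± 0.17 and -0.49 ± 0.17, adjusted p = 0.405 and 0.0596), and Cd68, a lysosomal protein (0.60 ± 0.17 and 0.40 ± 0.17, adjusted p = 0.0547 and 0.129). Csf1r and Cd68 were named after their values were seen. A further list of 24 genes linked with alternative activation or tissue residence holds surface and scavenger genes and some others. Of these, 4 rose in wild-type ears, and 2 rose and 6 fell in knockout ears. The 2 rises in knockout ears are near the share of all genes that rose there (8.07%). Msr1, scavenger receptor A, rose in each (1.35 ± 0.18 and 1.59 ± 0.18, adjusted p = 2.82e-04 and 9.53e-06). So did the transcription factor Myc (0.79 ± 0.18 and 0.64 ± 0.18, adjusted p = 0.0169 and 0.0205). Lyve1 (1.25 ± 0.17), which also marks lymphatic vessels, and the folate receptor Folr2 (0.99 ± 0.23) rose in wild-type ears (adjusted p = 2.61e-04 and 0.0189). The lectins Mgl2 (-1.10 ± 0.26) and Cd209d (-0.92 ± 0.29) and the matrix gene Fn1 (-0.85 ± 0.19) fell in knockout ears (adjusted p = 0.00648, 0.0370 and 0.00388), and no gene of this list passed for the difference of effects. Mgl2 and Cd209d read near or below the array medians. Of the other mannose receptor genes Mrc2, which encodes the collagen uptake receptor Endo180 of stromal cells, fell by 0.79 on the log2 scale in wild-type ears (SE 0.17, adjusted p = 0.0115) and by 1.14 in knockout ears (SE 0.17, adjusted p = 1.26e-04).

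Several genes linked with the 2 activation states, the inducers Il4 and Ifng among them, read low on the arrays. Il4, Il5, Il10, Il25 and Il13ra2 lay below the array medians on all 16 arrays, as did Ifng, Il12a, Cxcl9, Cxcl10 and Tlr7, the receptor gene for imiquimod, so none of these readings shows that the gene did not change. Il13 had group means of 2.67 to 2.94. For the counts that follow, 1.95% of all genes rose in wild-type ears, and 8.07% rose and 6.91% fell in knockout ears. Among the 25 genes of the interleukin 4 and 13 axis, 1 rose in wild-type ears, namely Il4ra, the shared receptor chain (0.90 ± 0.20, adjusted p = 0.0153). In knockout ears 6 rose and 4 fell, led by Il33 (1.58 ± 0.12, adjusted p = 1.37e-07) and Il4ra (1.46 ± 0.20, adjusted p = 5.70e-05). Stat3 (0.91 ± 0.14, adjusted p = 1.44e-04) and the receptor chain Il13ra1 (0.81 ± 0.11, adjusted p = 3.09e-05) also rose. The falls were Pparg (-0.70 ± 0.16, adjusted p = 0.00577), Irf4 (-0.66 ± 0.16, adjusted p = 0.00988), Ccl22 (-0.64 ± 0.18, adjusted p = 0.0185) and Tyk2 (-0.455 ± 0.12, adjusted p = 0.0132). Irf4 is a factor that cooperates with STAT6, and Ccl22 a chemokine induced by interleukin 4. Irf4 had group means of 2.64 to 3.30, near or below the array medians. Stat6 itself changed by 0.01 ± 0.09 in wild-type and 0.22 ± 0.09 in knockout ears (adjusted p = 0.984 and 0.150). The 4 genes that fell and Stat6 were named after their values were seen. Il33, an alarmin of keratinocytes and other barrier cells, was the only gene of this list called between genotypes: it was lower in knockout vehicle ears (-0.88 ± 0.12, adjusted p = 0.00317), and its IMQ effect differed by 1.14 ± 0.17 (adjusted p = 0.00572).

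While 1.95% of all genes rose in wild-type and 8.07% in knockout ears, the interferon gamma and Toll-like receptor axis holds 26 genes. Among these 26 genes 4 rose in wild-type and 11 in knockout ears, and none fell. In wild-type ears these were Tnf (1.01 ± 0.26), the feedback inhibitor Socs3 (0.95 ± 0.20), Hif1a (0.84 ± 0.12) and Ifngr1 (0.62 ± 0.11, adjusted p from 4.76e-04 to 0.0330). In knockout ears Il1b (4.46 ± 0.73), Ptgs2 (2.76 ± 0.37), Tnf (1.78 ± 0.26) and Hif1a (1.61 ± 0.12) had the largest rises (adjusted p from 1.14e-07 to 2.93e-04). Hif1a, the oxygen-sensitive factor that acts on Nos2 and glycolytic genes, was called for the difference of effects (0.78 ± 0.17, adjusted p = 0.0343). The median change over this list was 0.33 in wild-type and 0.42 in knockout ears, and over the interleukin 4 and 13 list 0.14 and 0.05.

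None of the 6 members passed between genotypes or for the difference of the IMQ effects in limma. With vehicle 0 of 6 were called (1 of 6, Chil1, at an unadjusted p under 0.05), with IMQ 0 of 6 (0 of 6 unadjusted), and for the difference of effects 0 of 6 (again Chil1 alone unadjusted). Over all genes the shares called were 0.456% with vehicle, 0.12% with IMQ and 1.25% for the difference of effects. No member had groups free of overlap between genotypes, against 5.99% of all genes with vehicle and 5.02% with IMQ. With IMQ the 6 genotype differences ran from -0.21 ± 0.21 for Chil3 to 0.12 ± 0.28 for Arg1, and the 95% intervals reached from -0.78 for Mrc1 to 0.71 for Arg1. For the difference of effects the interval of Chil3 was -0.52 to 0.70, that of Retnla -1.36 to 0.09 and that of Mrc1 -1.06 to 0.59. These intervals leave room for genotype effects of up to about the sizes given, and do not show that the genotypes responded alike.

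**Figure D4:**
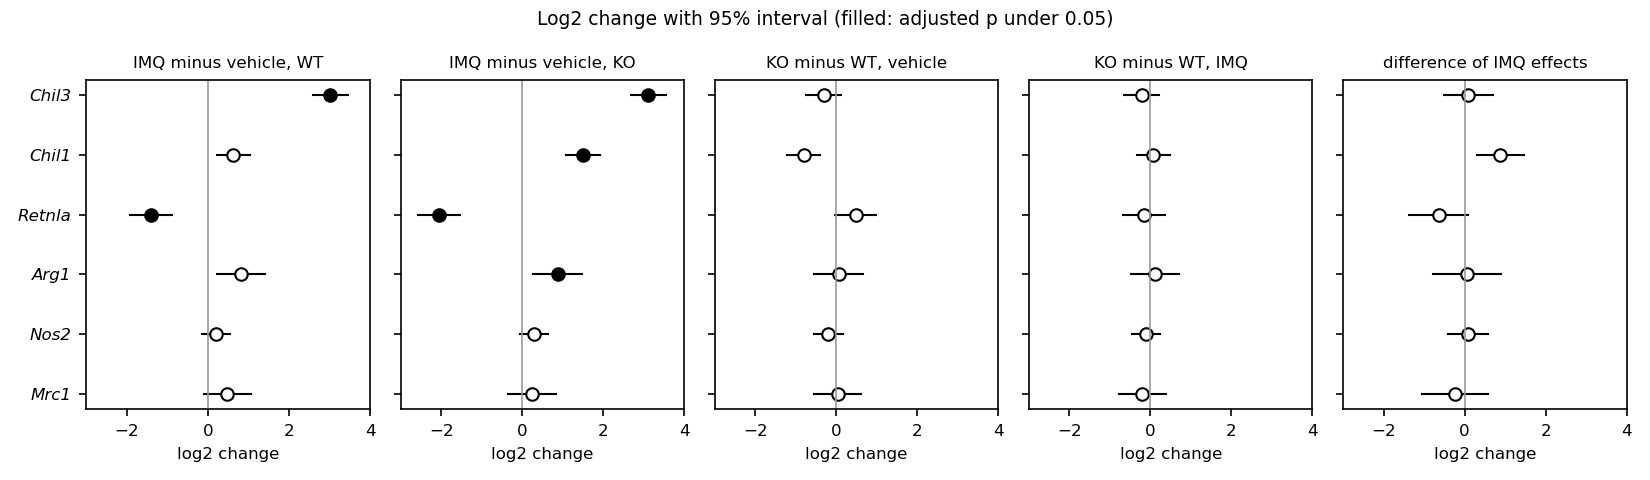
Log2 change of each member in the 5 comparisons, with its 95% interval from the limma fit; filled points have an adjusted p under 0.05. Chil3 and Retnla are filled in both IMQ panels, Chil1 and Arg1 in the knockout panel, and no point is filled in the genotype panels, where Chil1 with vehicle lies at -0.81.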

How the data were processed

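RNA of 16 ears was read on Affymetrix Mouse Gene ST 2.1 arrays, and the authors deposited log2 intensities of 41345 clusters. The submitters' processing notes name Affymetrix Expression Console; its version, the summarisation and the build are not stated there. These deposited log2 values have array medians of 3.21 to 3.28 and were used unchanged, and the number of arrays limits the precision. Symbols came from the deposited annotation sheet; per symbol the cluster with the highest mean was kept (30943 genes). limma 3.58.1 in R 4.3.3 (lmFit, eBayes) fitted 4 group means to all 16 arrays, with 5 contrasts and Benjamini-Hochberg adjustment over all genes, called under 0.05; the fit was tested on simulated data. Of the list symbols, Adgre1 and Siglecf were matched as Emr1 and Siglec5, and Ass1, Trac and Trdc were not analysed here. Members and lists were chosen with earlier results of these data known. Named genes were all members, up to 4 called genes per list by size of change, genes of the families, and the 3 genes with the highest Pearson r for members whose group means span at least 1 log2 unit. Alternatives were other normalizations, a dim-gene filter, eBayes options, array weights, compared groups alone, array number as a block, every cluster, left-out arrays, and leaving out knockout vehicle arrays 3 and 4 together, a setting taken from an earlier look at these data. The split of the muscle and adipocyte list was chosen after its values were seen. No label says that arrays with the same number pair. Of 24 same-numbered pairs 1 had deviations from the group means correlated above 0.1. The pairs of wild-type and knockout vehicle arrays ran from 0.055 to 0.105. Arrays with different numbers were not compared, so this check cannot decide whether the arrays pair.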

Additional observations from a re-analysis of the deposited data

How the results depend on the processing

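The calls of Chil3 and Retnla with IMQ in each genotype, and of Chil1 with IMQ in knockout ears, held under all alternatives run and without any single array. The number of members called with vehicle between genotypes went from 0 to 1, in each case Chil1, with the filter on dim genes, with array weights, with the array number as a replicate block and without knockout vehicle arrays 3 and 4; it was 0 to 1 over the left-out arrays. For the difference of the IMQ effects it was 1 without knockout vehicle arrays 3 and 4 and 0 to 1 over the left-out arrays. The replicate block also ended the knockout call of Arg1 (adjusted p = 0.0760) and changed no other call; array numbers are not known to pair samples. Signs turned only for changes that were not called: without knockout vehicle arrays 3 and 4 the difference of effects of Arg1 was -0.10. Over the left-out arrays the genotype difference with vehicle ran from -0.28 to 0.24 for Mrc1 and -0.07 to 0.19 for Arg1, that with IMQ from -0.15 to 0.42 for Arg1, and the difference of effects from -0.20 to 0.36 for Arg1, -0.053 to 0.21 for Nos2, -0.094 to 0.26 for Chil3 and -0.43 to 0.078 for Mrc1. Counts of calls over all genes moved by more than 1.5 times in the genotype comparisons. With vehicle, 141 became 15 with only the groups compared, 68 with every cluster, 237 with array weights, 240 with the block, 343 with trend and robust options and 357 with the filter (37 to 474 over left-out arrays). With IMQ, 37 became 11 with only the groups compared and 85 with trend and robust options (7 to 80), and for the difference of effects 387 became 144 with every cluster, 652 with trend and robust options and 723 with the filter (149 to 824). Readings near the array floor (Retnla with IMQ) or near the array medians (Nos2, Chil3 with vehicle) limit the changes that can be seen. The cause of these shifts was not tested. Using a second cluster of a member was not run, since each member has 1.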

Other observations

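Genes of further marker lists, and Lyz1 of the macrophage list, also read differently in these ears. For the counts that follow, the shares over all genes with IMQ were 1.95% higher and 1.69% lower in wild-type ears. In knockout ears they were 8.07% higher and 6.91% lower. Of 18 keratinocyte genes 1 rose and 4 fell with IMQ in wild-type ears, and 9 rose and 4 fell in knockout ears. Krt6a, a keratin of activated epidermis, read -2.70 ± 0.55 in knockout against wild-type vehicle ears (adjusted p = 0.0326). Krt15, a keratin of basal cells and the hair follicle bulge, was higher in knockout than in wild-type ears with vehicle (0.77 ± 0.14, adjusted p = 0.0179) and lower with IMQ (-0.72 ± 0.14, adjusted p = 0.0470), so its IMQ effects differed by -1.49 ± 0.19 (adjusted p = 0.00420). Lyz1, a lysozyme gene whose near copy Lyz2 is the macrophage form and may share its probes, differed in its IMQ effect by -1.89 ± 0.38 (adjusted p = 0.0193). Of 13 fibroblast and endothelial genes 4 rose and 1 fell in wild-type ears, and 3 rose and 2 fell in knockout ears. Of 13 measured T cell, B cell and dendritic cell genes 0 rose and 1 fell in wild-type ears and 0 rose and 3 fell in knockout ears.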
